A study of Rattus norvegicus with 6 samples.

Results

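The genes of glucose uptake, glycolysis, lactate handling and glycogen metabolism were followed in rat heart. The set comprised 37 genes chosen by name: transporters, each step from hexokinase to lactate dehydrogenase, the enzymes that make and break glycogen, and the lactate carriers. All 37 were on the array, with 52 probes, and all 37 were among the 17523 genes tested. Each gene was represented by its brightest probe. RNA labelled as whole heart was hybridised to 6 single-colour arrays, 3 from rats given AACO, a formula of Chinese medicine named only by its letters, at 0.386 µg/g, and 3 from rats given double-distilled water. Both were given daily for 8 weeks, and the hearts were taken 24 h after the final dose. The series text states that all animals had TAC, the common abbreviation for transverse aortic constriction, so the water group also carried that operation and no unoperated heart was compared. That text speaks of mice and of different donors per experiment, while Rattus norvegicus is the labelled organism and rn4, a rat build, is the one in the array files, and rat was taken as the species. Strain and age are not given in the sources used here.

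Glucose enters muscle cells through facilitative transporters, is trapped by hexokinase as glucose 6-phosphate, and is then either broken down to pyruvate or stored as glycogen. Flux through phosphofructokinase is tuned by fructose 2,6-bisphosphate, which the bifunctional PFKFB enzymes make and degrade. The adult heart burns mainly fatty acids, and raised glucose use is a known feature of the pressure-loaded and failing heart.

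The promoter sequences of 5 members are printed because the results turn on them: the 3 PFKFB genes, whose differences pointed opposite ways, glycogen synthase Gys1, and Aldoc, which had the largest difference. Each is the 250 bases before the gene's start on the gene's own strand, from RefSeq on build GRCr8. Capitals mark a CACGTG (E-box) or ACGTG (a form of the core of the hypoxia response element) match on either strand. Other forms of that core were not searched for. Every CACGTG also holds an ACGTG on each strand. The windows are chrX:22941926-22942175 for Pfkfb1, chr13:44726972-44727221 (minus strand) for Pfkfb2, chr17:71944683-71944932 for Pfkfb3, chr1:105051666-105051915 for Gys1 and chr10:63715294-63715543 for Aldoc.
Pfkfb1: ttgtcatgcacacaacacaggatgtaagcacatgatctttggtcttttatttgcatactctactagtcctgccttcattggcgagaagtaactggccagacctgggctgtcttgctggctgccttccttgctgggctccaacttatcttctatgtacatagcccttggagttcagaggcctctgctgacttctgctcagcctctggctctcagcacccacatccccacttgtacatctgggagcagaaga
Pfkfb2: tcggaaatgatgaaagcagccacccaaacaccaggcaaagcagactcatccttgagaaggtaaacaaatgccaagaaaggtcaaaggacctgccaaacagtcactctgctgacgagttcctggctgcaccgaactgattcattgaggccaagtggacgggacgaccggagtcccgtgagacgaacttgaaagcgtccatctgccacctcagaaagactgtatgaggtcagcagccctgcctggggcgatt
Pfkfb3: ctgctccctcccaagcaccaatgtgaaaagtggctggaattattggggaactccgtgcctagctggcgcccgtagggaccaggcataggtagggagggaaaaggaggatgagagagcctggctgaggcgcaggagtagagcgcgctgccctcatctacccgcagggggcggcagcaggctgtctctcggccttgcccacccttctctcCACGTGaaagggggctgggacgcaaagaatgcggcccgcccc
Gys1: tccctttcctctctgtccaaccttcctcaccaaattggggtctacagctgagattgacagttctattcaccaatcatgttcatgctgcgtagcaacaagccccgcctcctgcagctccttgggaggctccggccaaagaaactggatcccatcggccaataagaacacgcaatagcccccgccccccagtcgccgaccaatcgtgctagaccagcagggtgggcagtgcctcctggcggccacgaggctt
Aldoc: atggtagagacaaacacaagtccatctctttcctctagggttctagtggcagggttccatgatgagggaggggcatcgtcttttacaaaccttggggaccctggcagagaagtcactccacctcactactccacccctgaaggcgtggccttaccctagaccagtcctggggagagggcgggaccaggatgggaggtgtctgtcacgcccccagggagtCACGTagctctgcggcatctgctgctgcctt

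Pfkfb3 held an E-box whose first base lies 42 bases before the start. Aldoc held an ACGTG on the other strand, beginning 31 bases before the start, and the windows of Pfkfb1, Pfkfb2 and Gys1 held neither motif. A window was listed for 34 of the 37 members, all but Slc2a3, Slc2a4 and Pgk1. ACGTG occurred in 15 of the 34, or 44.1%, against 4653 of all 27457 listed windows, or 16.9%. CACGTG occurred in 3 members (Ldha, Pfkfb3 and the lactate carrier Slc16a1), or 8.82%, against 5.79% of all windows. The D-box TTATGTAA and the palindromic glucocorticoid response element were in 0 of the 34 windows, against 0.816% and 0.00364% of all windows. These matches describe letters in a window and are not measured binding sites.

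Pfkfb3 and Gys1 were the only 2 members that passed the test (limma, Benjamini-Hochberg over all genes tested, adjusted p under 0.05). Pfkfb3 fell and Gys1 rose with AACO. That is 5.41% of the members, against 11.2% of all genes tested. Higher calls made up 6.31% of all genes and lower calls 4.94%. At an unadjusted p under 0.05 there were 11 members, 8 of them higher and 3 lower, against 30.8% of all genes. The median log2 fold change was 0.05 over the members and 0.04 over all genes, and 19 of the 37 members lay within 0.2 of 0. Above 0 were 24 members, against 54.8% of all genes, and this count was 19 after quantile normalization and 35 without scaling between arrays. In 13 members, 10 higher and 3 lower, the 3 AACO arrays did not overlap the 3 control arrays, as in 37.4% of all genes (21.5% higher and 15.9% lower).

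**Figure D1:**
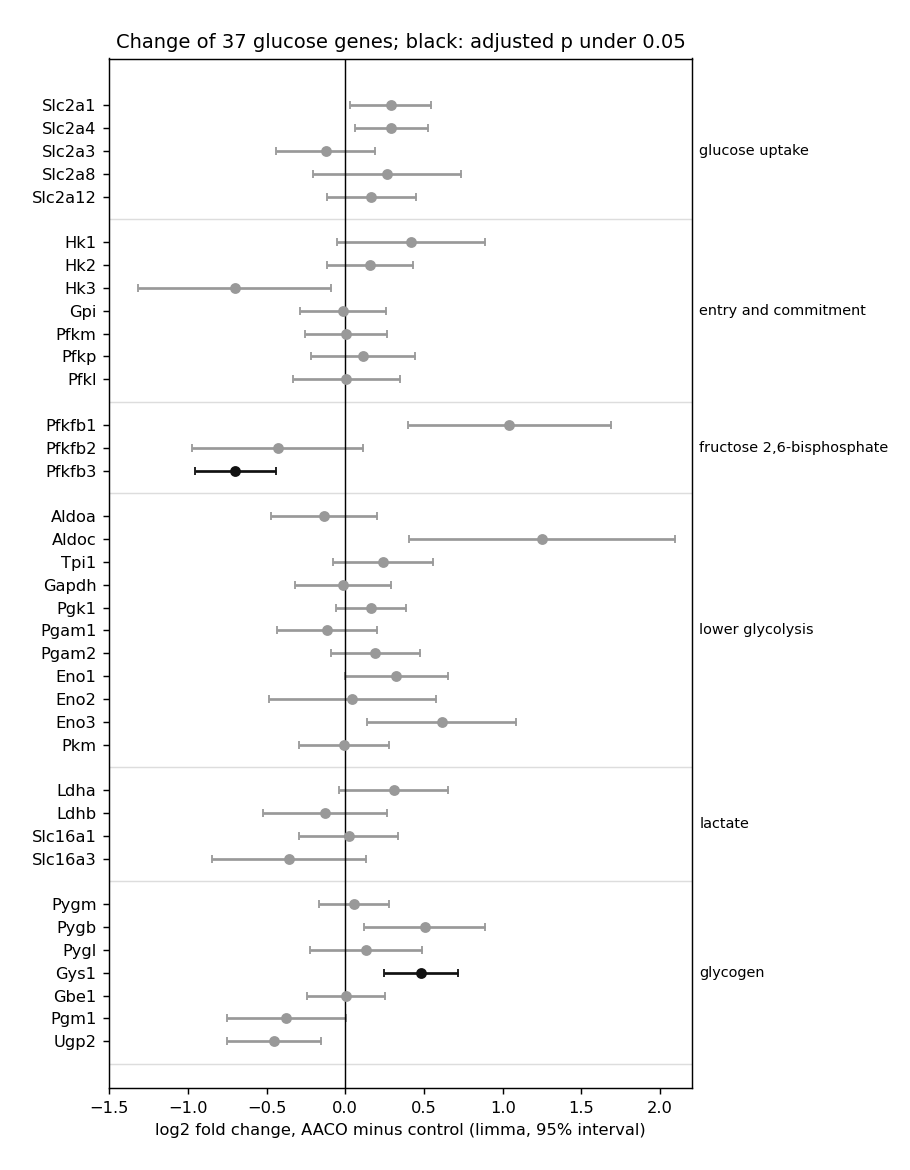
The log2 fold change, AACO minus control, of the 37 genes on the horizontal axis, with bars for the 95% interval from limma and genes grouped by role. Black marks the 2 genes with an adjusted p under 0.05, Pfkfb3 at −0.70 and Gys1 at 0.48, while most others lie near 0.

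The arrays of the groups differed as a whole. The share of non-control spots well above background was 70.9% to 72.4% with AACO and 66.0% to 68.7% in control. All AACO arrays lay on another slide and scan day than all control arrays, so slide, day and group cannot be told apart. The cardiomyocyte markers (Tnnt2, Myl2, Actc1 and 5 others) had a mean log2 level of 6.35 to 6.51 with AACO and 6.13 to 6.62 in control, and 0 of 8 passed the test, or an unadjusted p under 0.05, in limma. Of 8 macrophage markers 7 fell, and their mean lay between −1.995 and −1.77 with AACO and between −0.81 and −0.45 in control. The mean of the atrial genes Myl7 and Sln was 3.11, 5.05 and −0.74 on AACO arrays 1 to 3 and −2.01, −1.67 and −1.05 on the control arrays. Over all 5 tested atrial markers the mean overlapped, at 1.90 to 4.28 with AACO and 1.18 to 1.97 in control. Of those markers 3 differed upward and 2 downward, and 0 were called in limma. Smooth muscle markers had a mean of −0.70 to 0.03 against −1.36 to −0.88, with 0 of 4 called in limma and 4 of 4 at an unadjusted p under 0.05. The 3 tested red cell markers had a mean of 0.58 to 1.29 against 1.35 to 1.63, with Alas2 lower. Of these, 1 differed upward and 2 downward, and 1 was called in limma. Endothelial markers had a mean of 0.58 to 0.72 against 0.84 to 0.88, with 0 of 5 called in limma, 3 at an unadjusted p under 0.05, and 3 lower without overlap. None of 6 fibroblast and 2 tested adipocyte markers passed in limma, with 1 of each at an unadjusted p under 0.05. In bulk tissue, fewer cells of a type and less RNA per cell cannot be told apart. Levels here are log2 signals relative to the array's 75th percentile, so a negative level is a signal below that percentile and not an absent transcript. They depend on the probe, and levels of different genes were not compared. Gapdh, Pgam1, Eno1 and Ldha have near-identical processed copies in rodent genomes, and their probes may also read those. The array files place the Pgam1 probe on chromosome 10 (rn4), while the Pgam1 promoter window lies on chromosome 1 (GRCr8). Which copy that probe reads was not tested.

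Within the PFKFB family the differences pointed in opposite directions. Pfkfb3, the inducible isoform with high kinase activity, had a log2 level of −4.33, −4.58 and −4.51 on the AACO arrays and −3.73, −3.86 and −3.74 on the control arrays. All AACO values lay below all control values. The difference was −0.70 ± 0.11 (SE, n = 3 arrays per group, limma adjusted p = 0.0164), a signal 0.616 times that of control. The probe lies at chr17:78262283-78262342 (rn4) and had 1 spot per array. A second Pfkfb3 probe was above background on none of the 6 arrays and was not tested. The call was lost without AACO replicate 2 (−0.64, limma adjusted p = 0.074), without control replicate 3 (−0.68, limma adjusted p = 0.057) and without scaling between arrays (−0.21, limma adjusted p = 0.506). Without scaling the median of all genes moved to 0.52, and Pfkfb3 lay 0.74 below that median.

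Pfkfb1, the isoform known from liver and skeletal muscle, stood at −0.28, −0.50 and −0.90 with AACO and at −1.49, −2.10 and −1.20 in control. The groups did not overlap, with the control arrays spread more widely. The difference was 1.04 ± 0.27, a 2.06-fold higher signal, and missed the threshold (limma adjusted p = 0.0564, n = 3). It was 0.67 with the mean of the atrial genes Myl7 and Sln as a covariate (limma adjusted p = 0.545). A second Pfkfb1 probe, well above background on 5 of the 6 arrays, differed by 1.36 ± 0.31 and passed when every probe was fitted as a row of its own (limma adjusted p = 0.042). In that fit 11.1% of all 20112 probes passed. The mean of the 5 tested skeletal muscle markers lay at −2.73 to −2.50 with AACO and −3.03 to −2.78 in control. Myh4 had the largest difference among them, 0.93. The median over the 5 markers was 0.08, with 4 above 0, 1 below, and 1 called in limma. Their part in the Pfkfb1 difference was not tested.

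Pfkfb2, the heart isoform whose kinase is stimulated by insulin signalling, depended on the probe. Its brightest probe gave −2.26, −1.67 and −1.62 with AACO against −1.11, −1.67 and −1.48 in control. The groups overlapped, and the difference of −0.43 ± 0.22 did not pass (limma adjusted p = 0.248). It was −0.22 without AACO replicate 1, −0.28 without control replicate 1, −0.71 with the mean of both probes and 0.056 without scaling between arrays, which is 0.47 below the median of all genes there. The dimmer Pfkfb2 probe gave −4.54, −4.16 and −3.90 against −3.06, −3.20 and −3.35. Here every AACO value was below every control value, and the difference of −0.999 ± 0.18 passed in the probe-level fit (limma adjusted p = 0.025). The dimmer probe starts at base 1228 of the transcript the array names and the brighter one at base 2818. Which forms of the transcript each one reads was not tested.

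**Figure D2:**
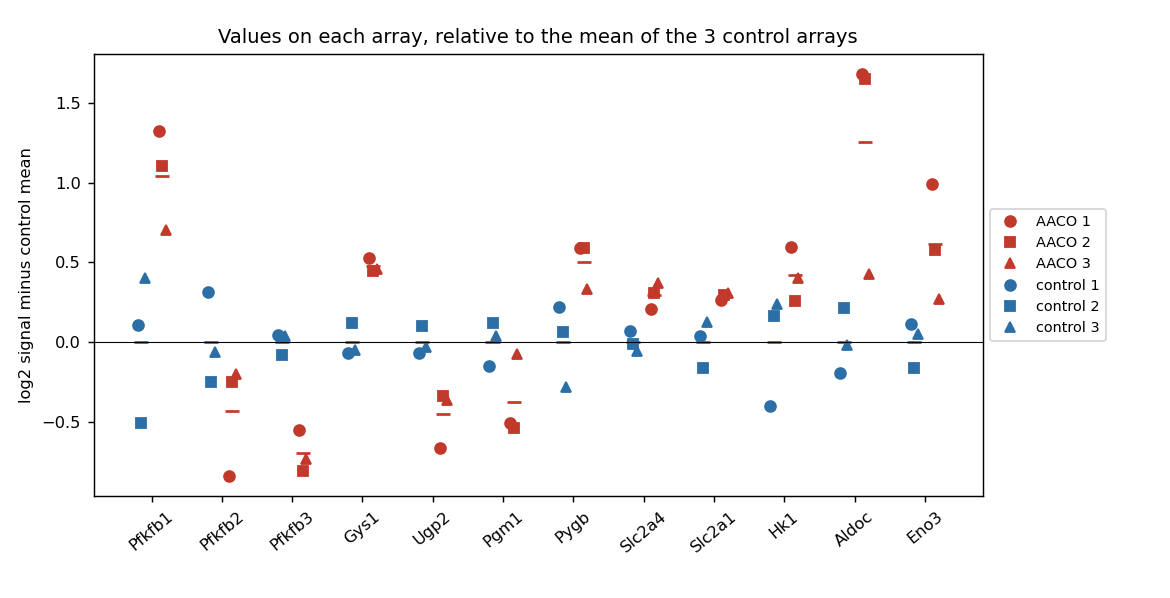
Log2 signal of 12 members on each of the 6 arrays, relative to the mean of the 3 control arrays, with red for AACO, blue for control, marker shape for replicate and a bar for each group's mean. The groups overlap for Pfkfb2 and Pgm1 and do not overlap for the other genes shown. AACO replicate 3 lies nearest the control arrays for Aldoc, Eno3 and Pfkfb1.

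Among the genes of glycogen metabolism, Gys1, the muscle glycogen synthase, rose. It stood at 3.90, 3.82 and 3.83 with AACO and at 3.30, 3.49 and 3.32 in control. The AACO arrays were tightly grouped and all lay above the control arrays. The difference was 0.48 ± 0.10, a 1.39-fold higher signal (limma adjusted p = 0.0330, n = 3), for a probe at chr1:95928091-95928150 (rn4). A second, dimmer Gys1 probe gave a difference of 0.13 that did not pass (limma adjusted p = 0.490). With the mean of both probes the difference was 0.31 (limma adjusted p = 0.0737). The call was also lost on leaving out AACO replicate 1 (limma adjusted p = 0.107), AACO replicate 2 (0.105), AACO replicate 3 (0.0511), control replicate 1 (0.0722) or control replicate 3 (0.0993), with differences between 0.44 and 0.49 in those fits. It was lost as well with spike-in scaling (0.52, limma adjusted p = 0.0575) and with no filter on dim probes (limma adjusted p = 0.0531).

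Ugp2, the pyrophosphorylase that makes the UDP-glucose used by glycogen synthase, pointed the other way. Its values were 3.35, 3.68 and 3.66 with AACO and 3.95, 4.11 and 3.99 in control, with no overlap. The difference of −0.46 ± 0.12 missed the threshold (limma adjusted p = 0.0650) and passed after quantile normalization (−0.52, limma adjusted p = 0.0390). Pgm1, which interconverts glucose 1-phosphate and glucose 6-phosphate, was at 1.35, 1.32 and 1.78 against 1.71, 1.98 and 1.90. The third AACO array overlapped the control arrays, and the difference was −0.37 ± 0.16 (limma adjusted p = 0.167). With the mean of Myl7 and Sln as a covariate it was −0.058 (limma adjusted p = 0.928). Both Ugp2 and Pgm1 were above 0 without scaling between arrays, at 0.031 and 0.11, while relative to the median of all genes they lay at −0.49 and −0.41.

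Of the 3 glycogen phosphorylases, which release glucose 1-phosphate, Pygb, the brain isoform, stood apart. It gave 2.47, 2.46 and 2.21 with AACO and 2.10, 1.94 and 1.59 in control. The groups did not overlap, yet the difference of 0.50 ± 0.16 did not pass (limma adjusted p = 0.0910). Pygm, the muscle isoform, differed by 0.05 ± 0.09 with a 95% interval of −0.17 to 0.28. Pygl, the liver isoform, differed by 0.13 ± 0.15 (interval −0.23 to 0.49), and the branching enzyme Gbe1 by 0.01 ± 0.10 (interval −0.24 to 0.25). Over the 7 glycogen genes the median difference was 0.05, with 1 higher call and 0 lower calls, and 3 at an unadjusted p under 0.05. Of all genes 11.2% were called and 30.8% had an unadjusted p under 0.05.

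The 5 glucose transporters had a median difference of 0.26, and 4 of the 5 lay above 0, against 54.8% of all genes. The same count held in every alternative except without scaling, where all 5 lay above 0, but the alternatives refit the same arrays. None passed the test in limma, and 2 had an unadjusted p under 0.05, against 30.8% of all genes. Slc2a4, which encodes the insulin-responsive GLUT4, gave 4.02, 4.12 and 4.18 with AACO and 3.88, 3.80 and 3.75 in control. Slc2a1, which encodes the basal transporter GLUT1, gave 0.98, 1.01 and 1.02 against 0.75, 0.55 and 0.84. For both genes the lowest AACO array lay above the highest control array. The differences were of like size, 0.29 ± 0.10 for Slc2a4 (limma adjusted p = 0.0981) and 0.29 ± 0.11 for Slc2a1 (limma adjusted p = 0.130), each from a probe spotted 10 times per array. Slc2a8 differed by 0.26, Slc2a12 by 0.16 and Slc2a3, the high-affinity transporter of neurons and blood cells, by −0.12, with adjusted p from 0.382 to 0.557 in limma. A second, dimmer Slc2a12 probe lay on the other side of 0, at −0.12 (limma adjusted p = 0.625 in the probe-level fit). With the mean of both probes Slc2a12 differed by 0.02.

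At the entry to glycolysis 0 of 7 genes passed in limma and 1, Hk3, had an unadjusted p under 0.05, against 30.8% of all genes. Hk1, the broadly expressed hexokinase bound to mitochondria, gave 3.48, 3.14 and 3.29 with AACO and 2.49, 3.05 and 3.12 in control. The groups were separated by a narrow gap, and control replicate 1 was the lowest array. The difference was 0.42 ± 0.19 (limma adjusted p = 0.205), and 0.22 without that array (limma adjusted p = 0.350). Hk2, the insulin-regulated muscle hexokinase, differed by 0.16 ± 0.11 (interval −0.11 to 0.43).

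Hk3, a hexokinase of myeloid blood cells, was at −6.07, −6.86 and −6.34 with AACO and −6.05, −5.72 and −5.37 in control. It was well above background on 1 of 3 AACO arrays and on 3 of 3 control arrays, and the difference was −0.70 ± 0.25 (limma adjusted p = 0.123). The filter of 3 arrays thus kept its probe through the control arrays, where its signal was higher. Its unadjusted p and its lack of overlap, counted above among the 3 lower members, are therefore not independent of the filter. The macrophage markers were lower on the AACO arrays, with 7 of 8 called, and so were the neutrophil markers, with a mean of −3.45 to −2.25 against −1.71 to −1.24. Their part in the Hk3 and Pfkfb3 differences was not tested.

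The enzymes that follow were close to 0. Gpi, which isomerises glucose 6-phosphate, differed by −0.01 ± 0.11 (interval −0.29 to 0.26). Pfkm, the muscle phosphofructokinase, differed by 0.00 ± 0.11 (interval −0.26 to 0.26), Pfkp by 0.11 ± 0.14 and Pfkl by 0.01 ± 0.14. A second Pfkl probe gave −0.28 without overlap of the groups (limma adjusted p = 0.171 in the probe-level fit).

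In lower glycolysis 0 of 11 genes passed in limma, 3 had an unadjusted p under 0.05 (30.8% of all genes did), and the median difference was 0.16. Aldoc, the aldolase isoform of brain, had the largest difference of all members. It gave 0.85, 0.82 and −0.40 with AACO and −1.02, −0.61 and −0.84 in control. AACO replicates 1 and 2 stood well above the rest, and AACO replicate 3 lay just above the highest control array. The difference was 1.25 ± 0.35, a 2.38-fold higher signal (limma adjusted p = 0.0690). Without AACO replicate 3 it was 1.66 and passed (limma adjusted p = 0.0133). A second Aldoc probe gave 0.73 ± 0.33 with overlapping groups (limma adjusted p = 0.190 in the probe-level fit).

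The same 2 AACO arrays had the high values of the atrial genes and of the nerve markers. The mean of the 5 nerve and Schwann cell markers was −1.77, −1.86 and −3.19 on AACO arrays 1 to 3 and lay between −4.24 and −2.92 in control. Among those markers Sox10 rose and Tubb3 fell. With the Myl7 and Sln mean as a covariate the Aldoc difference was 0.34 ± 0.28 (limma adjusted p = 0.671). That mean was itself higher on every AACO array than on any control array. Wherever it served as a covariate, its part and that of the group cannot be fully told apart. In the same fit Pfkfb3 was at −0.69 and Gys1 at 0.48, with adjusted p of 0.232 and 0.323, and 0 of all genes passed, while 2273 had an unadjusted p under 0.05. The part of nerve cells in the Aldoc difference was not tested.

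Eno3, the muscle enolase, gave 6.29, 5.88 and 5.57 with AACO and 5.41, 5.14 and 5.35 in control. AACO replicate 1 was highest, replicate 3 lay nearest control, and the groups did not overlap. The difference was 0.61 ± 0.20 (limma adjusted p = 0.0943), 0.79 without AACO replicate 3 (limma adjusted p = 0.0463) and 0.33 with the atrial covariate (limma adjusted p = 0.686).

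Eno1, the ubiquitous enolase, was at 6.66, 6.38 and 6.55 against 6.06, 6.42 and 6.14, with overlap. It differed by 0.32 ± 0.13 (limma adjusted p = 0.162), and its other probes gave −0.09 and 0.37. Eno2, the neuronal enolase, again depended on the probe. Its brighter probe differed by 0.04 ± 0.22, while the dimmer one gave −3.55, −3.75 and −4.01 with AACO and −2.95, −3.21 and −2.93 in control. The dimmer probe's groups did not overlap, and its difference of −0.74 ± 0.15 passed in the probe-level fit (limma adjusted p = 0.033).

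The other 7 genes of lower glycolysis lay between −0.13 and 0.24. Gapdh, often used as a reference gene, differed by −0.01 ± 0.13 with an interval of −0.32 to 0.29, and the signs of its 3 probes were not the same. Pkm, pyruvate kinase of muscle, differed by −0.01 ± 0.12 (interval −0.30 to 0.28), and Aldoa, the muscle aldolase, by −0.13 ± 0.14. Tpi1 differed by 0.24, Pgam2 by 0.19 and Pgam1 by −0.12. Pgk1, the first ATP-yielding enzyme of the pathway, had groups that did not overlap but a difference of 0.16 ± 0.09 (limma adjusted p = 0.275).

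**Figure D3:**
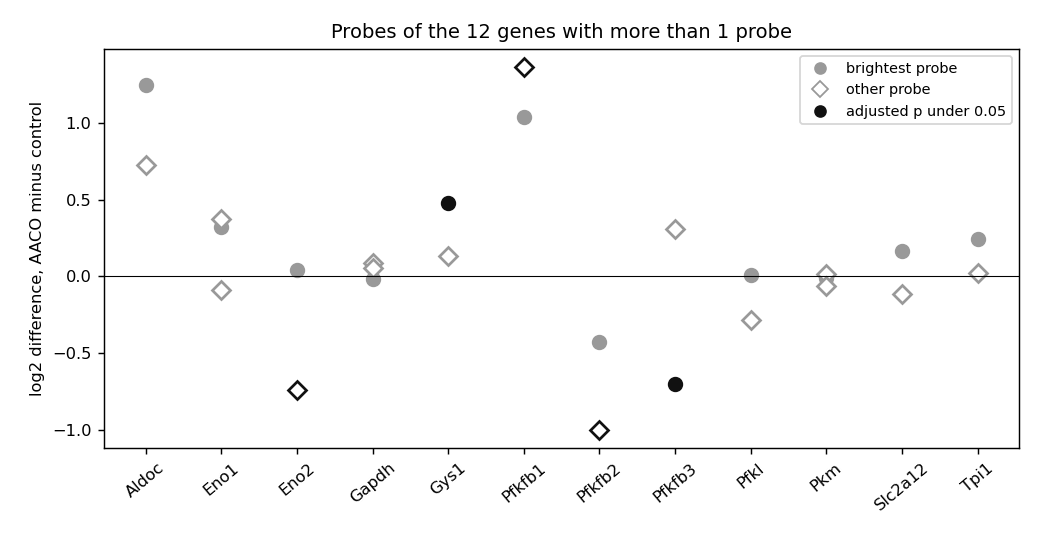
The log2 difference, AACO minus control, of every probe of the 12 members with more than 1 probe, with circles for the brightest probe, open diamonds for the others and black for an adjusted p under 0.05 in the fit of single probes. The probes of Pfkfb1 lie together above 0, while those of Pfkfb2, Eno2 and Gys1 differ in size.

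Across the array 12 members had more than 1 probe, and in 5 of them all probes lay on the same side of 0. In the fit with a row per probe 5 of 51 member probes passed, 2 higher (Gys1 and the second Pfkfb1 probe) and 3 lower (Pfkfb3, and the dimmer probes of Pfkfb2 and Eno2). Of all 20112 probes in that fit, 11.1% passed. For the 34 members with repeated spots, the SD between spots of the same array had a median of 0.0496 on the log2 scale. The largest such SD on any array was 0.60. The probes used for Pfkfb3, Aldoc and Slc2a12 had 1 spot per array, so they have no such SD.

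For lactate, 0 of 4 genes passed in limma, and 0 had an unadjusted p under 0.05. Ldha, the muscle subunit of lactate dehydrogenase, gave 6.59, 6.51 and 6.55 with AACO and 5.95, 6.42 and 6.35 in control. The groups did not overlap, and control replicate 1 was the lowest array. The difference was 0.31 ± 0.14 (limma adjusted p = 0.205), and 0.16 without that array (limma adjusted p = 0.360). Ldhb, the heart subunit, differed by −0.13 ± 0.16. The carrier Slc16a1, or MCT1, differed by 0.02 ± 0.13 (interval −0.30 to 0.34). Slc16a3, or MCT4, a carrier of glycolytic cells, differed by −0.36 ± 0.20 (limma adjusted p = 0.282). Without AACO replicate 3 the Slc16a3 difference was −0.57 and passed (limma adjusted p = 0.0495).

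Many of these enzymes exist as a heart or muscle form beside a form of other tissues, so the log2 ratio within a family was compared between arrays for 13 pairs. Subtracting a constant from each array leaves such a ratio as it is. In 5 pairs, or 38.5%, the AACO arrays did not overlap the control arrays, a share near the 37.4% of single genes without overlap. Such a separation gives p = 0.1 in an exact two-sided permutation test of 3 against 3, the smallest this design can give, and 0.26 after Benjamini-Hochberg adjustment over the pairs. No pair could therefore pass. The ratio of Aldoa to Aldoc was lower by 1.39, with AACO arrays at −1.85, −1.93 and −0.38 relative to the control mean. That of Pgam2 to Pgam1, the muscle and brain forms of phosphoglycerate mutase, was higher by 0.31. The Pgam1 probe is the one that the array files place on another chromosome than the gene's window. The AACO arrays lay from 0.26 to 0.37 and the control arrays from −0.02 to 0.03, although neither gene alone passed the test. The ratio of Ldha to Ldhb was higher by 0.44, that of Eno3 to Eno2 by 0.57 and that of Slc16a1 to Slc16a3 by 0.38. The ratio of Slc2a4 to Slc2a1 differed by 0.00, with AACO arrays from −0.06 to 0.06 and control arrays from −0.18 to 0.15.

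**Figure D4:**
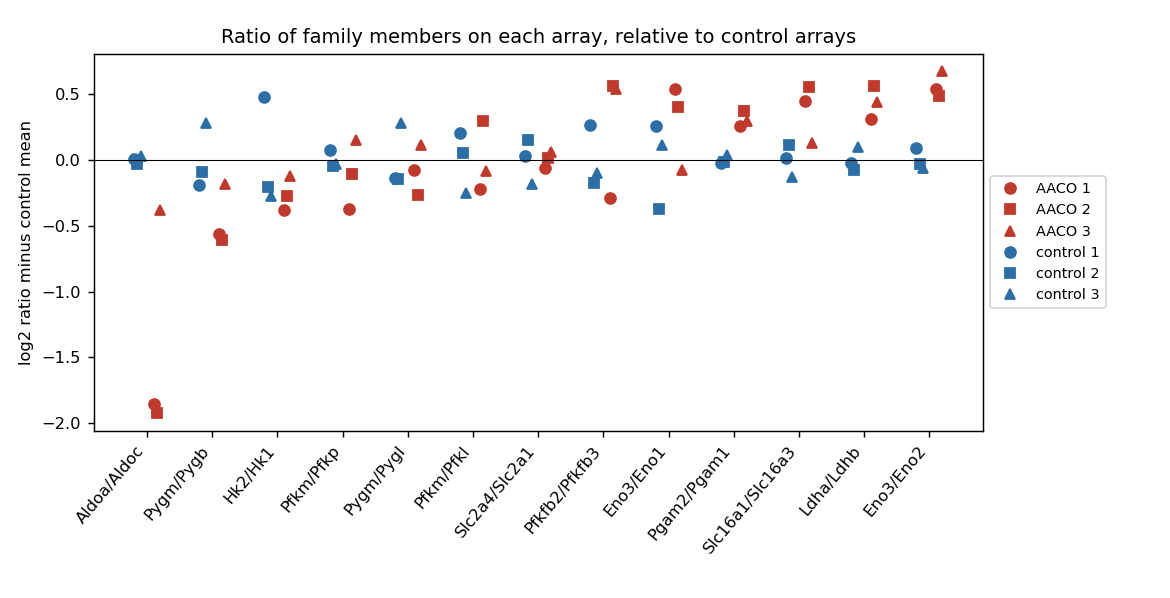
The log2 ratio of 13 pairs of family members on each array, relative to the mean ratio of the 3 control arrays, with red for AACO, blue for control and marker shape for replicate. The AACO and control arrays are separated in 5 pairs, and the Aldoa/Aldoc ratio of AACO replicate 3 lies at −0.38, apart from the other AACO arrays.

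The genes around the pathway were read from further lists. Of 17 tested regulators of glycogen, 2 passed, or 11.8%, a share near the 11.2% of all genes. Both encode subunits that bring protein phosphatase 1 to glycogen, and their differences had opposite signs. Ppp1r3c fell, with 3.19, 3.08 and 3.60 on the AACO arrays and 4.21, 4.52 and 4.21 on the control arrays, a difference of −1.02 ± 0.17 (limma adjusted p = 0.0204). Ppp1r3d rose, with 2.10, 1.57 and 1.47 against 0.69, 0.68 and 0.28, a difference of 1.16 ± 0.20 (limma adjusted p = 0.0229). Neither gene's groups overlapped, and the list's median was −0.02. Both calls were lost on leaving out AACO replicate 1 (limma adjusted p = 0.0788 for Ppp1r3c and 0.0576 for Ppp1r3d), AACO replicate 2 (0.0815 and 0.0785) or control replicate 3 (0.0542 and 0.0645).

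Of 17 tested genes of the pentose phosphate, hexosamine and polyol routes, 2 fell and none rose, again 11.8% against 11.2% of all genes. Both act in the hexosamine route, which turns fructose 6-phosphate into UDP-N-acetylglucosamine. Uap1, its final enzyme, gave −2.28, −2.12 and −2.24 with AACO and −0.92, −1.02 and −0.93 in control, a difference of −1.255 ± 0.09 (limma adjusted p = 0.0057). Gfpt2, an isoform of the rate-limiting first enzyme, gave −5.60, −5.09 and −5.24 against −3.46, −4.11 and −2.73, a difference of −1.88 ± 0.35 (limma adjusted p = 0.0260). The AACO arrays lay below the control arrays for both. Uap1 kept its call with any array left out, while that of Gfpt2 was lost without AACO replicate 1 (limma adjusted p = 0.0957), AACO replicate 2 (0.0850) or control replicate 1 (0.0523). The median of the list was −0.03.

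Of 14 genes of pyruvate entry into mitochondria, 1 fell and none rose, or 7.14%. It was Pdk4, a kinase that switches off pyruvate dehydrogenase, with −2.74, −2.72 and −2.67 on the AACO arrays and −0.64, −0.55 and −0.70 on the control arrays (−2.08 ± 0.09, limma adjusted p = 0.0022). The opposing phosphatase Pdp2 differed by 0.40 (limma adjusted p = 0.0861). Of 22 genes of insulin, AMPK and glucose sensing 1 rose and none fell, or 4.55%. It was Mef2a, a transcription factor of muscle genes that include Slc2a4. Mef2a gave −1.93, −2.51 and −2.62 with AACO and −3.12, −3.11 and −3.25 in control, a difference of 0.81 ± 0.19 (limma adjusted p = 0.0472). Mef2a lost its call on leaving out any array except AACO replicate 3, with adjusted p of 0.0645 without AACO replicate 1, 0.112 without AACO replicate 2, and 0.0839, 0.0900 and 0.125 without control replicates 1, 2 and 3. Tbc1d1, which restrains GLUT4 traffic, differed by −0.59 (limma adjusted p = 0.0518).

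Of 18 further members of the same enzyme and transporter families 0 passed in limma, with 5 at an unadjusted p under 0.05. The smallest p-values belonged to the transporter Slc2a6 (−0.84, limma adjusted p = 0.0954) and to G6pc3, a glucose 6-phosphatase (−0.40, limma adjusted p = 0.107). None of 22 fatty acid oxidation genes passed in limma, with 3 at an unadjusted p under 0.05 and a median of −0.02. Cpt2 in that list differed by −0.40 (limma adjusted p = 0.0700) and the fatty acid transporter Cd36 by −0.43 (limma adjusted p = 0.0722). None of 21 respiratory chain genes passed in limma, with 1 at an unadjusted p under 0.05 and a median of 0.02, and the smallest p-values were those of Cox5a (0.59, limma adjusted p = 0.133) and Cycs (0.30, limma adjusted p = 0.214).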

How the data were processed

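Single-colour Agilent arrays of 6 samples labelled as whole heart were analysed, 3 AACO and 3 control. Per the submitters' processing notes and the file headers, the scanner software was Agilent Feature Extraction 10.7.1.1. The intensity the authors deposited for a spot is its processed signal, after background correction and before any scaling between arrays. A deposited value table gives these arrays on a log2 scale, with a normalization not given in the sources used here. Its columns followed the scanner's log2 intensities (r of 0.998 or more) and share a median of 6.77. It served as an alternative. Its member differences lay near those after quantile normalization, such as 0.417 and 0.414 for Gys1 and −0.525 and −0.522 for Ugp2.

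The labelling used 0.2 ug of RNA per array, per the labels. From the 58717 non-control spots of each array, spots with an outlier mark were dropped, log2 intensities were averaged over the spots of a probe, and the array's 75th percentile over non-control spots was subtracted. Of 30367 probes, 20112 passed the filter (well above background on 3 or more arrays), a probe counting as above where at least a share of 0.5 of its spots was. Of all probes, 18377 were named through their accession and the RefSeq symbol table, and the others by the array file. A gene is its brightest probe, which gave 17523 genes. The percentile was first taken over averaged probes, and the version over spots was kept after both had been seen, with the other as an alternative.

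The comparison used limma 3.58.1 under R 4.3.3 (functions lmFit and eBayes, with two-sided p-values adjusted by Benjamini-Hochberg across the genes tested). Each adjusted p in the text is limma's. Errors are standard errors with 3 arrays per group, intervals are 95%, and a positive log2 fold change is higher with AACO. The fit was run on simulated data whose planted differences were larger than that of any member, without a slide or day effect. That run does not show how the fit performs for differences of the size called here. Nothing says which samples share a cage or day, so a p-value reflects only how far these 6 samples spread, and their number limits the precision. Values for every array are given for members that passed and for the 14 with the smallest p, for those that passed in the other lists, and outside that rule for Pfkfb2 and the dimmer probes of Pfkfb2 and Eno2, chosen after their values were seen. Members, lists, motifs and the naming rule were chosen with earlier results of these data known. No rn4 annotation was used, so the part of a gene that a probe lies in is not given.

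Alternatives were quantile, spike-in and no scaling, normexp background correction with an offset of 50, other filters, the mean of probes, the deposited log2 table, naming by accession, an atrial covariate (the mean of Myl7 and Sln) and each array left out.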

Additional observations from a re-analysis of the deposited data

How the results depend on the processing

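Of all genes, 1970 passed (1105 higher, 865 lower), 5719 without scaling between arrays and 0 with the atrial covariate in limma, where 2273 had an unadjusted p under 0.05. Leaving out an array gave 256 to 2160 (406 without AACO replicate 1, 256 without AACO replicate 2, 1207 without control replicate 2, 627 without control replicate 3). The split of higher and lower calls was 5487 and 232 without scaling, 1138 and 508 with spike-in scaling, 774 and 1529 with normexp, 778 and 1415 with no filter, and 874 and 1041 with the percentile over averaged probes.

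Of the members 2 passed, against 13 without scaling (all higher), 6 with normexp (Aldoc, Eno3, Gys1 and Pfkfb1 higher, Pfkfb3 and Ugp2 lower), 1 with no filter, 0 with the atrial covariate (2 at an unadjusted p under 0.05), 5 where any probe counted, and 0 to 4 with an array left out. Pfkfb3 passed in 13 of 17 alternatives (−0.77 to −0.21), Gys1 in 8 (0.31 to 0.96), Pfkfb1 in 5 (0.67 to 1.53), Aldoc in 4 (0.34 to 1.74) and Ugp2 in 3. In the other lists Uap1 and Pdk4 passed in 16 of 17, Ppp1r3d and Gfpt2 in 13, Ppp1r3c in 12 and Mef2a in 8. Of the members whose brightest probe is given on every array, Ugp2 (0.031), Pgm1 (0.11) and Pfkfb2 (0.056) changed sign, all without scaling. That setting leaves in, by construction, the difference in overall signal between the groups. Eno2, given by array only for its dimmer probe, changed sign in other alternatives, normexp among them. For the other moves the cause was not tested. Over all alternatives 20 of the 37 members changed sign at least once, none with a main log2 fold change beyond 0.46 in size. The pairs of family members without overlap numbered 5, and 5 to 8 with an array left out (8 without AACO replicate 3). Leaving out an array cannot make separated groups overlap, so this count could only stay or rise. The percentile over averaged probes and the count over any probe were chosen after seeing the data. The count over any probe comes from the fit of single probes, in which 11.1% of all 20112 probes passed. Naming by accession gave the same counts and repeats the main fit for the members. The deposited log2 table nearly repeats quantile normalization, so the 17 alternatives are not independent of one another.

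A slide or scan day block was not run because no slide or day held both groups. No paired analysis was possible because the numbers in the sample titles are not shared between the groups, and the replicate numbers used here follow accession order and pair nothing. Probes near background, such as that of Hk3, are limited by signal.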
